A study of Mus musculus with 2 samples.

Results

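Mir143, Mir145a and Mir145b are 3 of the 2202 miRNA genes counted by microRNA sequencing in hearts of 10-day-old female mice. They were chosen by gene symbol, as the genes of the miR-143 and miR-145 cluster and the annotated second miR-145 gene, and all 3 were found in the tables. The study holds 1 group, heart tissue of 2 separately numbered animals (replicates 2 and 1), B6CASTF1/J mice, a first-generation cross of the inbred strains C57BL/6J and CAST/EiJ, with 1 library from each heart and no treatment named in the labels. The design has no contrast between conditions, so the values describe the level of these genes in the tissue and how far the hearts differed.

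miR-143 and miR-145 are processed from hairpins that lie close together in the genome and are known to be made from a shared primary transcript. In vessels they are known as miRNAs of the contractile smooth muscle cell, where serum response factor and its coactivator myocardin drive their transcription. Their known targets include transcription factors such as Klf4 and Elk1, which favour the proliferative smooth muscle state. In the early mouse heart they are also known from cardiac progenitors. The libraries were made from unsorted heart tissue, so they do not show which cells the reads came from, and fewer cells of a type cannot be told apart from less RNA per cell.

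All 3 genes lie on the minus strand of chromosome 18 (mm10, GENCODE M21). Mir143 (ENSMUSG00000065445.3) spans 61649196 to 61649258, a hairpin of 63 nt, and Mir145a (ENSMUSG00000065592.2) spans 61647825 to 61647894, a hairpin of 70 nt. In the direction of transcription Mir143 comes first, with 1301 bases between the genes. In GENCODE M21 neither gene overlaps another annotated gene, exon or intron. The long noncoding RNA gene Carmn, known from smooth muscle and cardiac mesoderm, on the same strand, ends 366 bases upstream of Mir143, and the long noncoding RNA gene Bvht, known from cardiac commitment of stem cells, on the opposite strand, ends 352 bases from Mir145a. The RefSeq annotation of GRCm38.p6 draws Carmn longer, from 61645878 to 61665538, so that it holds both miRNA genes. Mir145b (ENSMUSG00000098366.1, 69022199 to 69022273, a hairpin of 75 nt) is not part of the cluster: it lies 7.37 Mb away and overlaps no other annotated gene.

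The hairpins of Mir143 and Mir145a have no near-identical copy among the miRNA genes. The longest run of bases that Mir143 shares with any of the other 2201 hairpins, on either strand, is 11 nt. For Mir145a it is 17 nt, shared with Mir145b, which is shorter than a whole mature miRNA. Such copies matter in these tables, because reads placed at more than 1 position, 38.0% of the reads of replicate 2 and 38.9% of replicate 1, are assigned to no gene. Reads from a truncated miR-145 that end inside the 17 nt run would be among them, and their number was not tested.

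To show what the cluster is compared with later, mature sequences of 4 other miRNAs known from smooth muscle are given, 5′ to 3′, from RefSeq (GRCm38.p6), with the seed (bases 2 to 8) in capitals. miR-221-3p and miR-222-3p, from neighbouring genes on chromosome X, share their seed. The seeds of miR-21a-5p and miR-10a-5p, both from chromosome 11, each occur once among the 4 sequences shown, and other miRNAs were not compared. The first 3 are known to favour proliferation of vascular smooth muscle cells, and miR-10a is known to favour their differentiation from embryonic stem cells.
miR-221-3p: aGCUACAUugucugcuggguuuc
miR-222-3p: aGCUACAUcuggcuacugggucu
miR-21a-5p: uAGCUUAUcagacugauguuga
miR-10a-5p: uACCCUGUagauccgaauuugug
The tables count reads per gene, so the 5p and 3p arms of a hairpin are summed.

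Reads on named miRNA genes numbered 4583025 in replicate 2 and 4260561 in replicate 1, and levels are given in CPM, which scale each library's counts on named genes to the same total. CPM of miRNA genes were not divided by length, since mature miRNAs are of similar size. A ratio between different miRNAs also holds any difference in how well their ends are ligated. The heart label was checked against miRNA genes that lie in introns of myosin heavy chain genes: Mir208a, Mir208b and Mir499 were all present, at 1144 to 4784 CPM on average. A chi-square test of the counts over genes (301070, with 374 degrees of freedom) found the libraries further apart than sampling noise, and they were treated as separate samples.

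Mir143 was among the most abundant miRNA genes of the heart by the reads assigned to genes. It had 155563 counts in replicate 2 and 219868 counts in replicate 1, which are 33943 and 51605 CPM. Its mean was 42774 ± 12489 CPM (SD, n = 2), and it stood at rank 8 in replicate 2 and rank 5 in replicate 1. It took 3.39% of the counts in replicate 2, with an exact 95% Clopper-Pearson interval of 3.38 to 3.41, and 5.16% in replicate 1, with an interval of 5.14 to 5.18. The intervals cover counting error only, and the gap between the hearts was far wider than either of them. Ranks and shares leave out multimapping reads, so genes with near-identical copies may stand too low in them.

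By mean level Mir143 stood at rank 5, after Mirlet7g. The let-7 gene Mirlet7g had 51993 CPM in replicate 2 and 62720 CPM in replicate 1, and the range of its values did not overlap that of Mir143. The genes below did overlap: Mir23b (40902 ± 7853 CPM), Mir99a (38576 ± 9103 CPM), Mirlet7b (37897 ± 3136 CPM), Mir23a (29996 ± 6063 CPM) and Mirlet7d (24985 ± 14625 CPM). The place of Mir143 within these 6 genes is therefore not settled by 2 hearts.

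Mir145a was present at a far lower level and was nearly equal in the hearts. It had 9206 counts in replicate 2 and 9075 counts in replicate 1, which are 2009 and 2130 CPM. Its mean was 2069 ± 85.8 CPM (SD, n = 2), at rank 50 in replicate 2 and rank 53 in replicate 1. Replicate 2 gave it a share of 0.201% of the counts, with an exact 95% interval of 0.197 to 0.205, and replicate 1 a share of 0.213%, with an interval of 0.209 to 0.217. The ranges of 14 other genes overlapped that of Mir145a, among them its nearest neighbours in the order: Mir411 (2110 ± 655 CPM) and Mir15a (2096 ± 904 CPM) above it, and Mir298 (2033 ± 1142 CPM) and Mir92-1 (1995 ± 185 CPM) below it.

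Mir145b was not detected. It had 0 counts in both libraries, which allows up to 0.655 CPM in replicate 2 and 0.704 CPM in replicate 1, taking 3 counts as the limit. In assigned reads Mir145a was thus at least 3069-fold higher than Mir145b in replicate 2 and at least 3025-fold higher in replicate 1. Reads that end inside the 17 nt run shared by the 2 genes would be assigned to neither, and their number was not tested. Of all 2202 genes, 1434 likewise had 0 counts in both libraries.

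**Figure D1:**
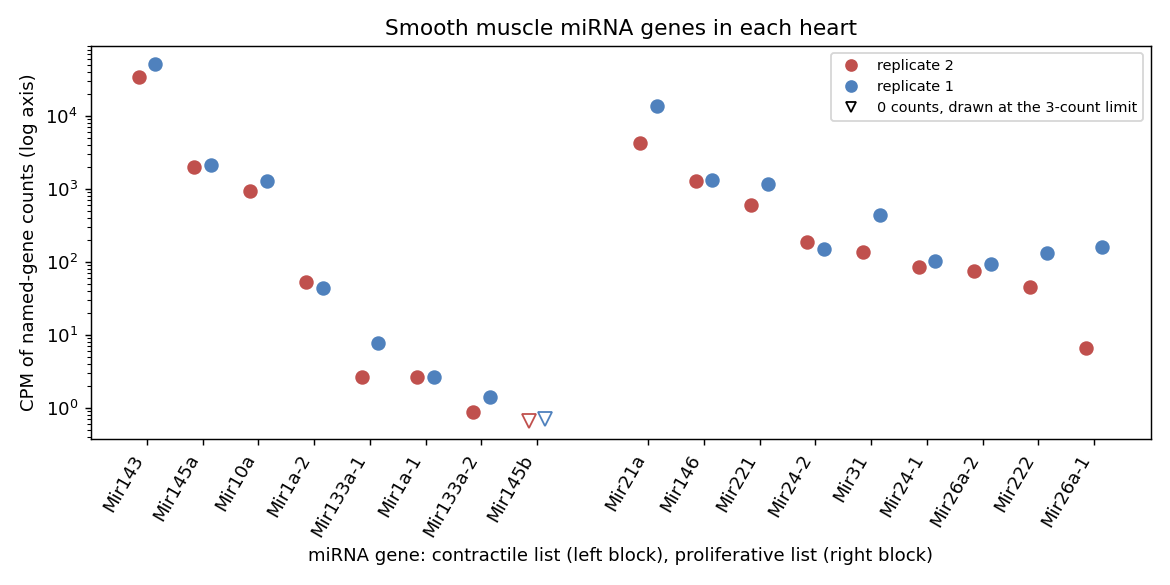
Level of each gene of the contractile (left block) and proliferative (right block) smooth muscle lists in CPM on a log axis, with 1 point per heart, replicate 2 left of replicate 1. Mir143 lies at 33943 and 51605 CPM, above all other genes shown, while Mir145b had 0 counts and is drawn as open triangles at the limit that 3 counts give.

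The strand of the reads was unambiguous for the cluster. Neither Mir143 nor Mir145a had a read on the opposite strand: 0 of 155563 and 0 of 219868 reads for Mir143, which allows up to 0.00193% in replicate 2 and 0.00136% in replicate 1, and 0 of 9206 and 0 of 9075 for Mir145a. Among the 156 genes whose libraries together held at least 1000 counts, 139 likewise had no opposite-strand read in either library. No miRNA gene is annotated opposite to either gene, so counting without regard to strand left their counts as they were. It did change what they were set against, since 14 of the 156 genes, Mir378a and Mir126a among them, then lost most of their reads as ambiguous. On that scale Mir143 took 5.00% of the counts in replicate 2 and 7.08% in replicate 1.

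Within the cluster, Mir143 exceeded Mir145a many times over in both hearts. The counts gave a 16.9-fold excess in replicate 2, a log2 ratio of 4.08 with an exact 95% interval of 4.05 to 4.11. In replicate 1 the excess was 24.2-fold, a log2 ratio of 4.60 with an interval of 4.57 to 4.63. Mir145a thus made up 5.59% of the cluster's 164769 counts in replicate 2 and 3.96% of its 228943 counts in replicate 1. A ratio within a library does not depend on scaling, and here it differed between the hearts: the log2 ratio changed by -0.52, replicate 2 minus replicate 1 (Fisher's exact test, two-sided, p = 2.08e-124; Benjamini-Hochberg adjusted over 89 clustered pairs, p = 3.70e-123). This test compares the 2 libraries, not conditions.

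How unusual such a gap between cluster mates is was read from all other neighbouring miRNA genes. Pairs were taken where both genes lie on the same strand with starts 10 kb apart or less and both had 10 or more counts in each library, which gave 89 pairs, 35 of them on chromosome 12. Unequal mates were common: the median log2 ratio of the higher over the lower gene was 2.70, or 6.49-fold, in the other 88 pairs. The gap between Mir143 and Mir145a, 20.2-fold as the geometric mean of the hearts, was exceeded by 18 of these 88 pairs. The 3 most unequal were Mir214 over Mir199a-2 (mean log2 ratio 7.87), Mir542 over Mir450-2 (7.68) and Mir541 over Mir377 (7.34).

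Many of those larger gaps involve a gene with near-identical copies. In 10 of the 18 pairs, Mir214 over Mir199a-2 and Mir542 over Mir450-2 included, the lower gene shares a run of 22 nt or more with a miRNA gene elsewhere, so reads from it can be counted as multimapping; their part in the gaps was not tested. Mir143 and Mir145a hold no such run. Among the 64 other pairs in which neither gene holds one, the median gap was 5.17-fold, and 8 pairs had a larger gap than Mir143 and Mir145a. Examples are Mir541 over Mir377, Mir30d over Mir30b (mean log2 ratio 6.28) and Mir23a over Mir27a (4.77). This restriction was chosen after the pairs had been seen.

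The change of the ratio between the hearts was of ordinary size for such a pair. By Fisher's exact test with Benjamini-Hochberg adjustment, 66.3% of the 89 pairs changed, so a change in this pair is near the background. The absolute change in log2 ratio had a median of 0.44 in the other 88 pairs, against 0.52 for Mir143 over Mir145a, and 39 of the 88 changed more.

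**Figure D2:**
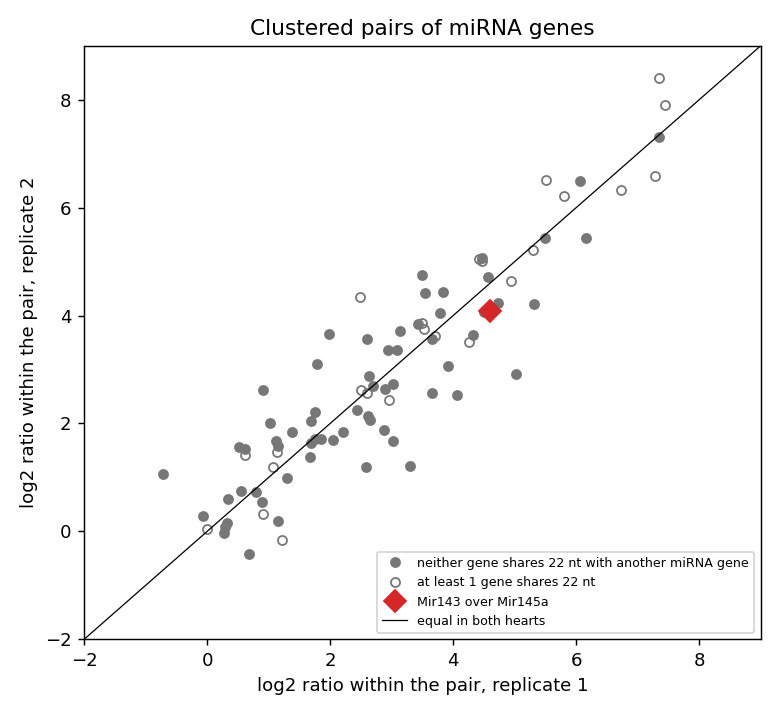
Log2 ratio of the higher over the lower gene in each of 89 clustered pairs, replicate 2 on the y axis against replicate 1 on the x axis, with the line of equal ratios. Filled points are pairs in which neither gene shares 22 nt with another miRNA gene. The diamond, Mir143 over Mir145a, lies at 4.08 in replicate 2 and 4.60 in replicate 1, below the line.

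Between the hearts, Mir143 was lower in replicate 2, while Mir145a was close to equal. After scaling by trimmed mean of M values (TMM), the log2 ratio of replicate 2 over replicate 1 was -0.54 for Mir143 (exact 95% interval -0.55 to -0.53) and -0.018 for Mir145a (-0.060 to 0.024). By an exact binomial test of the counts with Benjamini-Hochberg adjustment over 375 genes, Mir143 passed and Mir145a did not (adjusted p = 0.513). The p of Mir143 was too small to be held as a number above 0. For Mir145a the call depends on scaling: its log2 ratio was -0.085 with total counts (adjusted p = 0.000191) and 0.021 with DESeq2 size factors (adjusted p = 0.443), while Mir143 stayed between -0.60 and -0.50. The DESeq2 size factors were 1 for both libraries, so that setting compares raw counts with no correction for library size.

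A difference beyond counting noise was usual between these libraries: 55.2% of the 375 genes passed the same test, 29.1% as lower and 26.1% as higher in replicate 2. That 1 of the 2 tested members passed is thus near the background. Over the same 156 abundant genes, the median absolute log2 ratio was 0.31, and 45 genes differed more than Mir143. Mir145a stood at the other end, since 149 of the 156 genes differed more than it did. With 1 heart behind each value, a difference between animals cannot be told apart from one between libraries.

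**Figure D3:**
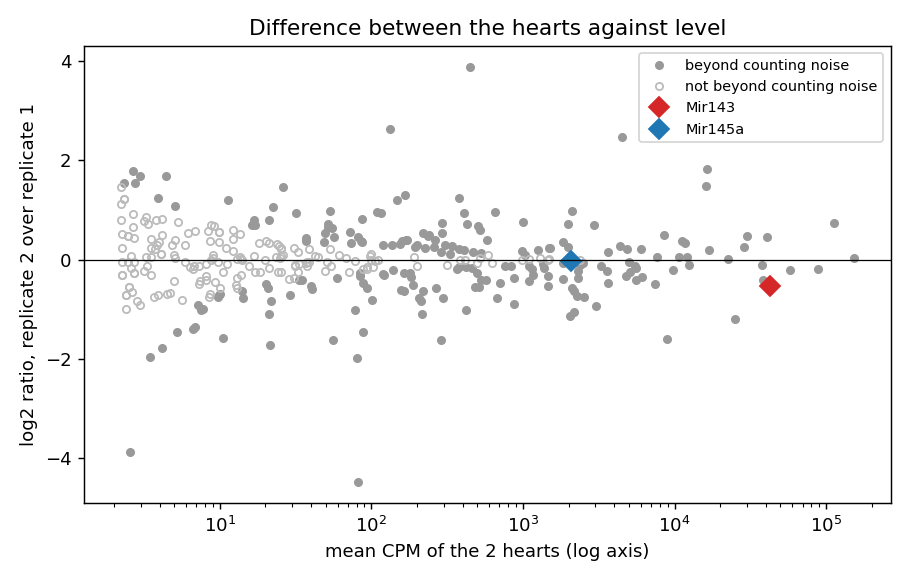
Log2 ratio of replicate 2 over replicate 1 (TMM scaling) against mean CPM of the hearts (log axis) for the 375 genes tested. Circles are filled where the exact binomial test passed. The diamonds of Mir143 and Mir145a are filled regardless of the test, which Mir145a did not pass. Mir143, at -0.54, lies below the line of equality and well inside the spread of the other genes, and Mir145a, at -0.018, lies on the line.

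The genes most like each member across the 2 libraries were taken as those with the nearest log2 ratio among the 156 abundant genes. For Mir143 (-0.54) these were Mir455 (-0.53), Mir382 (-0.56), Mir501 (-0.56), Mirlet7f-1 (-0.51) and Mir125b-2 (-0.57). For Mir145a (-0.018) they were Mir30c-2 (-0.014), Mirlet7c-1 (-0.014), Mirlet7c-2 (-0.0087), Mir541 (-0.0040) and Mir342 (-0.0026). None of the 10 lies on chromosome 18, which is near the background. That chromosome holds 57 of all 2202 miRNA genes, and 8 of the 346 with 10 or more counts in both libraries. Since 2 libraries give a single ratio per gene, many genes are close by this measure, and Mirlet7f-1, Mir125b-2, Mir30c-2 and both let-7c genes have near-identical copies that leave their counts uncertain.

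By the reads assigned to genes, the miRNA genes linked to the contractile state of smooth muscle were dominated by Mir143. Besides the 3 members, this list of 8 holds Mir10a and the 4 muscle genes of the Mir1a and Mir133a clusters, which are also in the cardiac muscle list below. The list summed to 36929 CPM in replicate 2 and 55077 CPM in replicate 1, and 6 of its 8 genes had 10 or more counts in both. Mir10a had 917 CPM in replicate 2 and 1286 CPM in replicate 1, with a log2 ratio of -0.42 (adjusted p = 1.25e-45, exact binomial test), the same direction as Mir143. Those 4 muscle genes were counted at 1.14 to 48.4 CPM on average, but each shares a run of 22 nt or more with a miRNA gene elsewhere, so these values are uncertain. Of the 6 genes tested, 3 were lower in replicate 2, 1 was higher and 2 did not pass, which is 4 of 6 called, against 29.1% lower, 26.1% higher and 55.2% called in all over the 375 genes. Their median log2 ratio was -0.22, against -0.015 over all 375 genes. Mir143 and Mir145a are themselves among the 6, so this tally gives no support apart from them. With total counts Mir145a also passed as lower and no gene of the list as higher, giving 4 lower and 0 higher.

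Of the 9 genes linked to the proliferative state, 6 were lower in replicate 2, 1 was higher and 2 did not pass, against 29.1% lower and 26.1% higher over all 375 genes. Their median log2 ratio was -0.89, against -0.015 over all genes tested. With total counts 7 were lower and 1 higher, and with DESeq2 size factors, which left the counts unscaled, 5 were lower and 2 higher. The counts of 4 of the 9 (Mir24-1, Mir24-2, Mir26a-1 and Mir26a-2) are uncertain, since each shares a run of 22 nt or more with a miRNA gene elsewhere, and they hold 2 of the 6 lower genes and the 1 higher gene. Mir21a had 4247 CPM in replicate 2 and 13476 CPM in replicate 1, a log2 ratio of -1.60. Mir221 had 589 CPM in replicate 2 and 1147 CPM in replicate 1 (log2 ratio -0.89), and its seed mate Mir222 had 45.2 and 130.03 CPM (-1.46). Mir31, known to favour smooth muscle proliferation, had 136 CPM in replicate 2 and 440.1 CPM in replicate 1 (-1.62). Mir146, by contrast, had 1273 and 1312 CPM, with a log2 ratio of 0.023 that did not pass (adjusted p = 0.505). Several of these genes are also known from fibroblasts, endothelium or white blood cells, so neither list measures smooth muscle cells alone.

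Set against such genes within each library, Mir143 held a different place in the hearts, depending on the partner. It had 53.5 times the summed counts of Mir221 and Mir222 in replicate 2 and 40.4 times in replicate 1. Against Mir21a, a gene of activated fibroblasts and proliferating smooth muscle, it was 7.99-fold higher in replicate 2 and 3.83-fold higher in replicate 1. Against Mir126a, the endothelial miRNA gene within Egfl7, it stood at 0.246 of its counts in replicate 2 and at 0.598 in replicate 1.

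Genes of other cell types differed between the libraries too. Mir126a had 137860 CPM in replicate 2 and 86322 CPM in replicate 1, while its opposite-strand partner Mir126b was at or under 3 counts. The cardiac muscle list of 7 genes had 4 of 6 tested genes lower in replicate 2, 1 higher (0 with total counts) and 1 not past the test, against 29.1% lower and 26.1% higher over all 375 genes. It shares its Mir1a and Mir133a genes, and so their calls, with the contractile list. Of the 3 without near-identical copies, Mir208a had a log2 ratio of -1.05, Mir499 of -0.33 and Mir208b of -0.19, while Mir1a-2, whose counts are uncertain, had one of 0.37. The ratio of Mir143 to the summed counts of Mir208a, Mir208b and Mir499 was 5.19 in replicate 2 and 5.35 in replicate 1, a sum that hides these unequal differences. The white blood cell genes Mir142, Mir150, Mir155 and Mir223 summed to 2447 CPM in replicate 2 and 2295 CPM in replicate 1. Mir214, a gene of mesenchymal cells, had 5149 CPM in replicate 2 and 4614 CPM in replicate 1, and Mir143 exceeded it 6.59-fold and 11.2-fold. The fibroblast list of 9 genes summed to 10405 CPM in replicate 2 and 18683 CPM in replicate 1, but 6158 and 5207 CPM without Mir21a (a sum added after seeing the data), so that gene alone sets which sum is larger. Of its 8 tested genes, 5 were higher in replicate 2 and 2 lower, with a median log2 ratio of 0.34. Erythroid genes, 3 of 3 higher in replicate 2 (2 of 3 with total counts), summed to 1048 and 549.7 CPM, and epithelial genes, 5 of 7 lower in replicate 2, to 427 and 801 CPM. Over all 375 genes 26.1% were called higher and 29.1% lower. No gene of these marker lists was at 0 in both libraries, and the part of cell makeup in the difference of Mir143 was not tested.

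**Figure D4:**
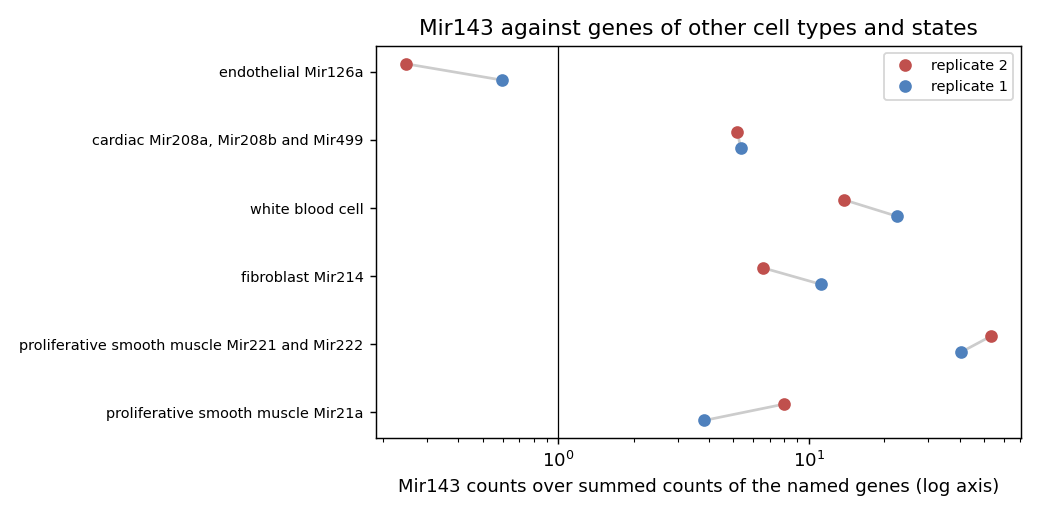
Counts of Mir143 divided by the summed counts of genes known from other cell types or from the proliferative smooth muscle state, on a log axis, with replicate 2 above replicate 1 in each row. The ratio to the cardiac genes was 5.19 and 5.35, while the ratio to Mir126a was 0.246 in replicate 2 and 0.598 in replicate 1.

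On chromosome 18 the cluster stands near another abundant gene. Of the 57 miRNA genes of this chromosome, 8 had 10 or more counts in both libraries and 35 had 0 in both. Over all 2202 genes these counts were 346 and 1434, so the chromosome is near the background. Within 500 kb of Mir143 and Mir145a the annotation holds Mir378a, about 249.9 kb away, and Gm25301, which overlaps Mir378a on the opposite strand. Mir378a, a miRNA gene of oxidative metabolism in an intron of Ppargc1b, had 150502 CPM in replicate 2 and 154380 CPM in replicate 1, with a log2 ratio of 0.030 that passed the exact binomial test (adjusted p = 2.90e-32). Gm25301 had 0 counts in both, and so did Mir6356, the sole miRNA gene within 500 kb of Mir145b.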

How the data were processed

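Total RNA of 2 hearts was sequenced as microRNA-seq libraries, size-selected below 30 nt per the labels. The authors deposited raw read counts per miRNA gene for each library, made on mm10 with GENCODE M21, per the file headers. The sources used here name no aligner or counting program. The gene-strand column was used. The 4 category rows (unmapped, multimapping, outside features, ambiguous) stayed out of library sizes; reads on named genes were 44.9% of all reads in replicate 2 and 39.5% in replicate 1. With 1 group, no p-value across animals was computed.

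CPM used the total on named genes. Ratios used TMM factors (edgeR 4.0.16, R 4.3.3) and a prior count of 0.5. Genes whose counts summed to 20 or more were tested by an exact two-sided binomial test with Benjamini-Hochberg adjustment at 0.05, which measures counting error between 2 libraries. It was first run on simulated counts with counting noise alone, where it called 2.99% of unchanged genes and 87.0% of genes changed 2-fold. Those counts held no variation between animals, so the run does not show how the test behaves with it. Intervals are exact at 95%, while the limits given for 0 counts or 0 reads take 3 as the limit. Shared runs were computed from GENCODE M21 hairpins; copies overlapping the same locus were not counted. Python 3.11.15, scipy 1.17.1 and DESeq2 1.42.0 were also used. Named genes were the members, their 2 neighbours in rank on each side, the 5 genes nearest in ratio, list genes, the 3 most unequal pairs and miRNA genes within 500 kb; the other pairs and the genes overlapping in range were named after their values were seen. Members and lists were chosen with earlier results of these data known. Alternatives covered strand, denominator, scaling, count minimums, pair distance and leaving out a replicate.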

Additional observations from a re-analysis of the deposited data

How the results depend on the processing

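Of 42 values under alternatives other than leaving out a replicate, 31 kept their direction and call or moved by less than the replicate SD (counts, less than 1.5 times). Part of these 31 could not have moved, so the tally does not measure robustness. Mir145b has no counts to scale, and counting without regard to strand leaves the ratio of Mir143 to Mir145a as it is. A count minimum likewise leaves the log2 ratio of a gene unchanged. Mir143 averaged 60402 CPM without regard to strand and 17820 CPM over all reads. Mir145a averaged 2941 CPM without regard to strand (rank 49), 872 CPM over all reads and 2442 CPM without Mir378a. These shifts follow from the denominators. The log2 ratio of Mir145a was -0.085 with total counts, passing the test, and 0.021 with DESeq2 size factors, which left the counts unscaled. Clustered pairs numbered 56 at 100 or more counts, 10 of them more unequal than Mir143 and Mir145a. Where neither gene shares 22 nt with another miRNA gene, 8 were more unequal. Both restrictions leave fewer pairs. The summed CPM of the fibroblast list, not counted among the 42, averaged 5682 without Mir21a, against 14544 with it. Leaving out a replicate gave 33943 to 51605 CPM for Mir143, 2009 to 2130 CPM for Mir145a and a log2 ratio of Mir143 over Mir145a of 4.08 to 4.60. No paired analysis was possible because the labels name no second group. Depth limits Mir145b, at 0.655 and 0.704 CPM.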
